A study of Mus musculus with 16 samples.

Results

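The response to lipopolysaccharide (LPS) was compared between mouse bone marrow derived macrophages (BMDMs) grown with GM-CSF and BMDMs grown with M-CSF, both on tissue culture treated (TC) dishes. For each gene, the log2 fold change upon LPS challenge in GM-CSF cells was subtracted from that in M-CSF cells, which gives the interaction of growth factor and LPS. A positive interaction means that the LPS response was higher in M-CSF cells, either because the gene rose more or because it fell less. The comparison used 8 of the 16 libraries of the series, in 4 groups of 2: GM-TC and M-TC at steady state, and GM-TC-LPS and M-TC-LPS after 3 h of LPS. In all 4 groups the cells came from the bone marrow of C57BL/6J mice aged 8 weeks and were cultured for 7 days. GM stands for GM-CSF and M for M-CSF throughout. The other 8 libraries hold the same 4 groups on dishes without that treatment (noTC), and are used here only to repeat the measure. By the study's methods, GM and M cells were seeded at different densities, in different growth factor concentrations and without a change of medium, so growth factor, density and medium cannot be told apart. The labels number the replicates but do not say whether they came from separate mice, so p-values measure the spread between these libraries. Of 22287 genes in the deposited table, 12514 passed the expression filter and were tested, and all of them are members of the comparison.

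GM-CSF and M-CSF act through different receptors on myeloid cells. The M-CSF receptor (Csf1r) is a receptor tyrosine kinase, and the GM-CSF receptor signals through JAK2 and STAT5. LPS is sensed by TLR4, which starts one arm through MyD88 that leads to NF-kB and AP-1 and another through TRIF that leads to interferon beta. Secreted interferon beta then acts back on the cells through its receptor, and induces the interferon stimulated genes. M-CSF macrophages are known for a weak tonic interferon signal at rest, and GM-CSF cultures hold macrophages together with cells that resemble dendritic cells.

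Total counts of the 8 TC libraries lay between 17527802 and 26916532. Values per library are CPM, counts brought to a common library size with TMM factors, which lay between 0.778 and 1.39. On this scale 3 counts correspond on average to 0.116 CPM in M-TC and 0.136 CPM in GM-TC, the floors used for lower bounds. The macrophage marker list (7 genes, including Adgre1, Csf1r and Lyz2) summed to between 24700 and 44620 CPM. A dendritic cell list of 7 genes summed to 46.1 to 78.6 CPM in GM and 1.08 to 3.59 CPM in M libraries, and a neutrophil list of 10 genes to 13.2 to 36.3 CPM in GM and 0.337 to 1.16 CPM in M libraries. A list of 23 cardiac muscle genes summed to 71.35 and 41.8 CPM in GM-TC and 71.8 and 72.1 CPM in GM-TC-LPS. In M it summed to 97.2 and 57.9 CPM in M-TC and 54.6 and 51.3 CPM in M-TC-LPS. Its member Myh6 was at 14.8 and 7.49 CPM in GM-TC, at 21.98 and 12.01 CPM in M-TC and at 0 in the LPS libraries, unlike the sum of the list. A list of 11 stromal genes summed to 4.15 to 12.3 CPM at steady state and 39.6 to 60.2 CPM after LPS. The part of these lists in the results was not tested. In bulk RNA, fewer cells of a type and less RNA per cell cannot be told apart. In the noTC libraries at steady state, the 10 abundant genes that were lowest relative to the other libraries stood at 0.55% to 0.821% of the mean of the LPS and noTC libraries, against 0.0279% to 0.128% in the TC libraries at steady state. For Il1a, Il1b and Cxcl10 the difference between dishes is therefore given with and without a small share of those libraries removed.

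The LPS response depended on the growth factor for 1594 of 12514 genes (12.7%), at a Benjamini-Hochberg adjusted p under 0.05 (edgeR's quasi-likelihood test) and a difference beyond 1 on the log2 scale, that is, a response differing more than 2-fold. The response was higher in M for 769 genes (6.15%) and higher in GM for 825 genes (6.59%). By adjusted p alone, 5145 genes (41.1%) passed. With scaling by library size only, the median interaction of all genes moved from 0.04 to -0.30 and the counts became 468 higher in M and 1567 higher in GM. LPS raised 1673 genes (13.4%) and lowered 1586 genes (12.7%) more than 2-fold in GM cells, and raised 2165 genes (17.3%) and lowered 2315 genes (18.5%) in M cells. The largest class among the 1594 genes was of 281 genes that rose in both cell types and rose more in M. A further 234 genes fell in M and were flat in GM, where flat means a log2 fold change within that of a 1.5-fold change, and 188 genes fell in both but fell more in M. Another 181 genes rose in M and were flat in GM, 82 rose in both and rose more in GM, and 53 rose in GM and were flat in M. Opposite responses were rare, with 17 genes that fell in GM and rose in M, and 16 genes that rose in GM and fell in M (10 without the second GM-TC library). The plot of both LPS responses shows these classes around its diagonal.

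**Figure D1:**
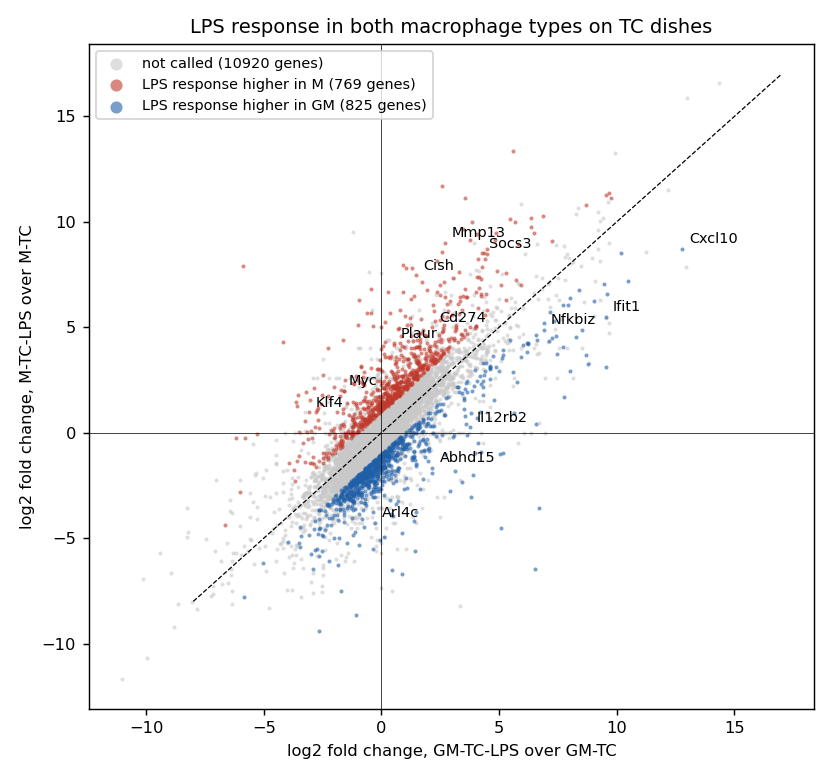
Log2 fold change upon LPS challenge in GM-TC (horizontal axis) and M-TC (vertical axis) of 12514 genes; the dashed line marks equal responses. The 769 red genes lie above the line (response higher in M) and the 825 blue genes below it, and both colours reach from genes induced in both cell types to genes repressed in both.

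Il12rb2, the beta 2 chain of the interleukin 12 receptor, was induced in GM and flat in M. It was measured at 8.03 and 7.53 CPM in GM-TC, 102 and 108 CPM in GM-TC-LPS, 7.82 and 10.9 CPM in M-TC and 10.98 and 11.4 CPM in M-TC-LPS. The GM-TC-LPS libraries stood far above the other 6, which lay close together, with a log2 fold change of 3.76 in GM and 0.25 in M and an interaction of -3.50 (standard error 0.20, adjusted p = 5.46e-12). Serpinb9, an inhibitor of granzyme B, behaved alike, at 10.7 and 11.6 CPM in GM-TC, 64.9 and 68.02 CPM in GM-TC-LPS, 12.1 and 11.8 CPM in M-TC and 10.9 and 11.1 CPM in M-TC-LPS. Its interaction was -2.70 (standard error 0.12, adjusted p = 1.3e-13). Pmp22, a membrane protein first known from myelin, rose in GM from 25.6 and 27.4 to 91.1 and 89.6 CPM. It stood at 219 and 229 CPM in M-TC and 178 and 171 CPM in M-TC-LPS, so that the M libraries stayed above all GM libraries while only GM rose. The sialyltransferase gene St8sia4 rose in GM (log2 1.61) against -0.56 in M. Mylk, which encodes myosin light chain kinase, rose from 1.06 and 0.644 to 10.1 and 10.4 CPM in GM and stayed under 0.3 CPM in the 4 M libraries.

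The 16 genes that rose in GM and fell in M included Abhd15, a gene of the alpha/beta hydrolase family. Abhd15 was at 5.25 and 5.88 CPM in GM-TC, 24.5 and 25.4 CPM in GM-TC-LPS, 13.1 and 12.8 CPM in M-TC and 3.89 and 4.36 CPM in M-TC-LPS. At steady state both M libraries were above both GM libraries, and upon LPS challenge the order was the opposite, with an interaction of -3.82 (standard error 0.16, adjusted p = 3.56e-14). Gpr155, a membrane protein of lysosomes that senses cholesterol, crossed over in the same manner, from 13.7 and 10.9 to 25.2 and 26.1 CPM in GM and from 42.8 and 43.3 to 7.28 and 6.74 CPM in M. The interaction of Gpr155 was -3.69 (adjusted p = 6.36e-15). Kctd12b started at close levels in both cell types, at 69.1 and 64.6 CPM in GM-TC and 58.95 and 60.95 CPM in M-TC. It rose to 138 and 136 CPM in GM-TC-LPS and fell to 12.7 and 14.8 CPM in M-TC-LPS. Serpinb6b, a serine protease inhibitor, and the cell polarity gene Llgl2 had interactions of -3.03 and -2.54.

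Plaur, the receptor of urokinase at the cell surface, was among the 181 genes induced in M and flat in GM. Plaur was at 315 and 344 CPM in GM-TC, 474 and 469.8 CPM in GM-TC-LPS, 8.94 and 9.95 CPM in M-TC and 183 and 176 CPM in M-TC-LPS. The GM libraries were highest both before and after LPS, the M-TC libraries were lowest, and M-TC-LPS lay between, which gave an interaction of 3.73 (standard error 0.09, adjusted p = 6.2e-18). Rgl1, a regulator of the small GTPase Ral, started at 12.4 and 14.6 CPM in M-TC and reached 150.5 and 148 CPM in M-TC-LPS. In GM it stood at 178 and 172 CPM before and 170.1 and 166 CPM after LPS, so the M cells came close to a level that the GM cells held throughout. Flt1, a receptor of vascular endothelial growth factor, was at 11.9 and 9.95 CPM and 11.7 and 10.9 CPM in GM and went from 1.04 and 1.27 to 17.6 and 22.3 CPM in M, above GM. Trp53i11 rose in M from 0.678 and 0.711 to 13.7 and 13.7 CPM, and its GM libraries held 11.5 and 12.4 CPM before and 12.2 and 14.3 CPM after LPS. Tyro3, a receptor tyrosine kinase for the uptake of dying cells, rose in M to 1.38 and 1.22 CPM, next to 17.3 and 16.7 CPM in GM-TC-LPS (interaction 3.17).

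The 17 genes that fell in GM and rose in M included the transcription factors Egr2 and Myc. Egr2, a zinc finger factor, was at 117 and 113 CPM in GM-TC, 16.6 and 18.1 CPM in GM-TC-LPS, 5.11 and 5.72 CPM in M-TC and 12.3 and 10.6 CPM in M-TC-LPS. GM-TC was by far the highest group, and upon LPS challenge the GM level came down toward that of M-TC-LPS, with an interaction of 3.81 (standard error 0.14, adjusted p = 6.1e-15). Myc, a driver of cell growth, was at 24.6 and 24.1 CPM in GM-TC, 7.24 and 7.71 CPM in GM-TC-LPS, 3.59 and 5.42 CPM in M-TC and 18.7 and 17.96 CPM in M-TC-LPS. The order of the cell types turned over between steady state and LPS (interaction 3.72, standard error 0.18, adjusted p = 4.46e-13). Gadd45g, a gene of the stress response, fell from 14.7 and 18.4 to 2.38 and 2.69 CPM in GM and rose from 2.75 and 2.36 to 5.27 and 6.16 CPM in M. Akap7, an anchoring protein of protein kinase A, and Ppargc1b, a coactivator of mitochondrial genes, had interactions of 3.48 and 2.74, and both fell in GM and rose in M.

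The class with the most genes among those that moved in 1 cell type alone was of the 234 genes that fell in M and were flat in GM. Arl4c, a small GTPase, was at 107 and 113 CPM in GM-TC, 95.8 and 85.6 CPM in GM-TC-LPS, 72.4 and 75.8 CPM in M-TC and 3.99 and 3.72 CPM in M-TC-LPS. Only the M-TC-LPS libraries stood apart, far under the others, with an interaction of -3.98 (standard error 0.15, adjusted p = 4.29e-15). Map3k14 encodes the kinase NIK of the alternative NF-kB pathway and went from 15.5 and 13.1 to 2.76 and 2.67 CPM in M, against 9.44 and 9.54 and 12.7 and 13.98 CPM in GM. Mex3b, an RNA binding protein, Soga1 and the zinc finger gene Zfp282 had log2 fold changes of -2.76, -2.76 and -2.46 in M and of -0.17, -0.10 and 0.04 in GM. The opposite class, down in GM and flat in M, held 61 genes. Fos, a subunit of AP-1, went from 15.4 and 15.3 CPM to 2.33 and 1.53 CPM in GM and stood at 12.4 and 13.4 CPM and 13.7 and 13.8 CPM in M, so that the groups were close at steady state and apart after LPS (interaction 3.09, adjusted p = 8.06e-11). Tcf7l2, a factor of the Wnt pathway, fell from 41.8 and 39.99 to 5.01 and 3.67 CPM in GM, against 9.21 and 7.45 and 11.4 and 12.7 CPM in M. Wfs1, a protein of the endoplasmic reticulum, fell in GM to a level still above M (log2 fold change -2.01). B3gnt7 and Kazn also fell in GM (log2 -3.50 and -2.81) but were under 0.5 CPM in every M library, and without the first M-TC-LPS library Kazn no longer passed (interaction 1.48, adjusted p = 0.574).

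**Figure D2:**
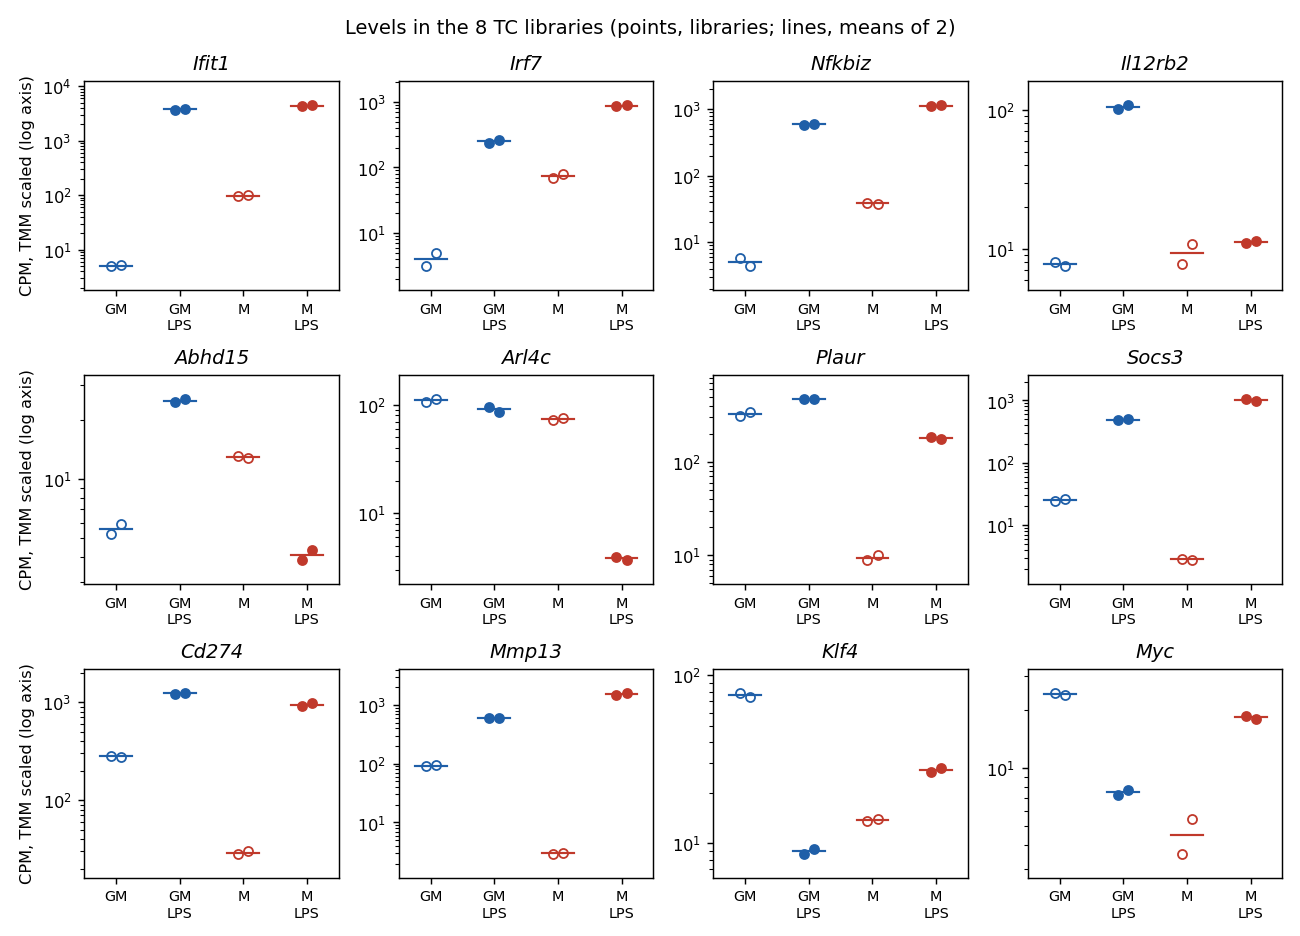
Levels of 12 genes in the 8 TC libraries, in TMM scaled CPM on log axes; points are libraries, open at steady state and filled after LPS, and lines are means of 2. Ifit1, Irf7 and Nfkbiz started higher in M and rose more in GM, while Plaur, Socs3, Cd274 and Mmp13 started higher in GM and rose more in M; Abhd15, Klf4 and Myc changed their order between the cell types.

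Of the lists of genes by role, interferon stimulated antiviral genes had the lowest median interaction, at -0.95 against 0.04 over all tested genes. LPS raised 57 of the 59 tested members in GM and 58 in M. The response was higher in GM for 27 of them and higher in M for 2, next to 6.59% and 6.15% of all genes. At steady state the members were higher in M, by a median of 1.84 on the log2 scale, and after LPS by a median of 0.96. Ifit1, an RNA binding antiviral protein, was at 4.999 and 5.11 CPM in GM-TC, 3720 and 3779 CPM in GM-TC-LPS, 96.2 and 98.8 CPM in M-TC and 4310 and 4496 CPM in M-TC-LPS. The levels after LPS were close, and GM cells started 4.27 log2 units lower. Ifit1 rose by 9.53 in GM against 5.50 in M on the log2 scale (interaction -4.03, standard error 0.09, adjusted p = 6.47e-19). Ifit2, of the same family, was at 9.64 and 7.61 CPM in GM-TC, 2545 and 2664 CPM in GM-TC-LPS, 205 and 226 CPM in M-TC and 4662 and 5375 CPM in M-TC-LPS. For Ifit2 the M libraries were higher both before and after LPS, although GM rose more (interaction -3.71). Ifit3 had an interaction of -3.71 and Ifit3b one of -5.03, but these are near copies that share reads, so the values of each are uncertain. The 2 members with a higher response in M were Cd69, a surface protein of activated cells, and Slfn1, with interactions of 1.81 and 1.16.

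The promoters of these genes are shown because an interferon response element (ISRE) can be read in them. The letters GAAA, then 2 bases of any kind and GAAA again, were searched on both strands in the 250 bases before each start site in RefSeq (GRCm38.p6), and overlapping matches were counted. They stood in 14 of 25 windows (56.0%) of 20 of the 27 antiviral genes called higher in GM, those for which a promoter was given, against 2.9% of the windows of all tested genes, 2.98% of 32851 windows of all promoters, 4.82% of the windows of all genes called higher in GM and 3.95% of those called higher in M. The list was made of interferon stimulated genes, so a high share of this element was built in by the choice of list. The share among list members that were not called was not counted, so it is not tied to the growth factor. The last 200 bases before the start of 3 antiviral genes follow, 5′ to 3′ on the strand of the gene, with matches in capitals (TTTC, 2 bases and TTTC where the match is on the other strand); Isg15 and Rsad2 were chosen after their values were seen.
Isg15 (chr4:156200819-156201018, minus strand): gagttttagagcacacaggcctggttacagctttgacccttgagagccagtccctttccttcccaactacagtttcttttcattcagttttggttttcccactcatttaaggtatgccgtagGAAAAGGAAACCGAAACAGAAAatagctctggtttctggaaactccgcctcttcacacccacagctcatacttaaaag
Ifit3 (chr19:34583329-34583528, plus strand): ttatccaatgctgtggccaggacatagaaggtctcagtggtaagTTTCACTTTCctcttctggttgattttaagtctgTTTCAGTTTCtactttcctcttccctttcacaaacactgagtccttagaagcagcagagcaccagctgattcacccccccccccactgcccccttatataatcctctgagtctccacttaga
Rsad2 (chr12:26456453-26456652, minus strand): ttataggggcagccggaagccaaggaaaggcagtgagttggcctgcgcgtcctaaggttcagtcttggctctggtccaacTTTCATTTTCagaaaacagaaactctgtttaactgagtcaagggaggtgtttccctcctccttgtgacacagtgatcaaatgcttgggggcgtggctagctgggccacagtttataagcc

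Isg15, which encodes a protein related to ubiquitin, has 3 overlapping matches, and was at 1.46 and 2.34 CPM in GM-TC, 411 and 416 CPM in GM-TC-LPS, 23.1 and 26.4 CPM in M-TC and 409 and 422 CPM in M-TC-LPS. Its log2 fold change was 7.73 in GM and 4.07 in M (interaction -3.66, adjusted p = 2.29e-14). Rsad2, which encodes viperin, has a single match and was at 12.7 and 11.1 CPM in GM-TC, 8348 and 8492 CPM in GM-TC-LPS, 98.4 and 111 CPM in M-TC and 13040 and 14540 CPM in M-TC-LPS. Rsad2 rose by 9.47 in GM and 7.04 in M on the log2 scale (interaction -2.43, adjusted p = 1.15e-14). A match in these letters is a description and does not show that a factor was bound.

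Among 19 tested genes of interferon regulatory factors and STATs, 4 had a higher response in GM and 3 in M (6 and 1 with scaling by library size only). Of this list 36.8% was called, next to 12.7% of all genes tested. Irf7, which amplifies the interferon response, was at 3.13 and 4.91 CPM in GM-TC, 239 and 264 CPM in GM-TC-LPS, 68.6 and 78.8 CPM in M-TC and 866 and 894 CPM in M-TC-LPS. M libraries were higher at both times, and GM rose more (interaction -2.35, standard error 0.16, adjusted p = 6.4e-11). Irf4 was higher in GM at both times and fell in M (log2 -1.20, interaction -1.51), and Stat4, which transmits interleukin 12 signals, rose in GM (log2 1.75) against 0.59 in M. Jak2, the kinase shared by the GM-CSF and interferon gamma receptors, rose in both and more in M, from 46.5 and 44.98 to 972 and 1070 CPM (interaction 1.42). Ifnb1 itself was near the limit of counting at steady state, at 0.101 and 0 CPM in GM-TC and 0.120 and 0.0374 CPM in M-TC. Upon LPS challenge Ifnb1 was at 7.24 and 6.36 CPM in GM and 6.15 and 7.26 CPM in M, and the groups overlapped. The ratio to steady state was 151 in GM (95% counting interval 41.5 to 1255) and 86.3 in M (33.3 to 319). Interferon inducible GTPases, which act against microbes inside cells, differed among themselves, with 5 of 19 higher in M and 2 higher in GM. With scaling by library size only the counts were 4 and 4. Of these GTPases 36.8% were called, next to 12.7% of all genes tested. Tgtp2 rose more in GM (interaction -2.22), and Gbp4 and Gbp7 more in M (2.33 and 1.72). The members of these families share sequence, so reads may be split among them.

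Cxcl10, a chemokine induced by interferon, rose in both cell types and more in GM. It was at 0.353 and 0.685 CPM in GM-TC, 3758 and 3932 CPM in GM-TC-LPS, 23.5 and 26.7 CPM in M-TC and 10510 and 10700 CPM in M-TC-LPS. The M libraries were higher at both times, and the rise was 12.79 in GM and 8.72 in M on the log2 scale (interaction -4.07, standard error 0.19, adjusted p = 2.39e-13). Of 25 tested chemokines it alone was called with a higher response in GM, while 10 were called higher in M. The share called was 44%, next to 12.7% of all genes tested, and the median interaction was 1.54. With scaling by library size only, 2 were called higher in GM and 10 in M. On noTC dishes the interaction of Cxcl10 was 0.87. Ccl7, which attracts monocytes, was at 6.31 and 7.61 CPM in GM-TC, 314 and 309.8 CPM in GM-TC-LPS, 0.877 and 0.561 CPM in M-TC and 760.0 and 878 CPM in M-TC-LPS. GM-TC stood above M-TC and M-TC-LPS above GM-TC-LPS (interaction 4.68, standard error 0.26, adjusted p = 3.08e-12). Ccl22, a chemokine for regulatory T cells, rose in M from 0.160 and 0.112 to 48.5 and 56.4 CPM, but GM-TC-LPS held 1348 and 1469 CPM, so the higher response in M (interaction 4.19) ended at 3.73% of the GM level. Ccl17, of the same group, rose from 4 counts over both M-TC libraries to 8.46 and 9.41 CPM, a ratio of 115 (95% counting interval 44.6 to 426), which was 3.54% of GM-TC-LPS. Genes known from GM-CSF cultures such as Plet1, Rbp4 and Chil3 stood in M-TC-LPS at 0.222% to 0.327% of their level in GM-TC-LPS. Of the 769 genes with a higher response in M, 25 had less than 5% of the GM level after LPS, and 2 had less than 1%. The same share over all tested genes was not counted.

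Of 33 tested cytokines, 10 had a higher response in M and 4 in GM (42.4% called, next to 12.7% of all genes tested). With scaling by library size only the counts were 7 and 5, and on noTC dishes 7 and 6. The list's median interaction was 0.75 on TC and -0.08 on noTC dishes. Tnf was at 8.23 and 9.91 CPM in GM-TC, 3202 and 3357 CPM in GM-TC-LPS, 26.6 and 26.1 CPM in M-TC and 6405 and 6456 CPM in M-TC-LPS. M libraries were higher at both times, and the interaction of -0.56 (adjusted p = 0.000521) passed by p but not by size. Il1b, the precursor of interleukin 1 beta, was at 7.12 and 7.33 CPM in GM-TC, 5946 and 6382 CPM in GM-TC-LPS, 0.758 and 1.12 CPM in M-TC and 2007 and 2197 CPM in M-TC-LPS. GM cells were higher at both times, and M rose more (interaction 1.38, standard error 0.21, adjusted p = 1.25e-05). Il1a was far higher in GM after LPS, at 7132 and 7435 CPM against 483 and 522 CPM, and still rose more in M from 0.439 and 0.374 CPM (interaction 3.38, adjusted p = 1.44e-09). Il6 was at 0.303 and 0.201 CPM in GM-TC, 1951 and 2085 CPM in GM-TC-LPS, 0.0399 and 0 CPM in M-TC and 1345 and 1642 CPM in M-TC-LPS. With 1 count over both M-TC libraries, its M response was not resolved at this depth, and the interaction did not pass (adjusted p = 0.0858), although it passed when only the 8 TC libraries were fitted (adjusted p = 0.0438). Il12b, a chain of interleukins 12 and 23, was at 0.151 and 0.161 CPM in GM-TC and 3176 and 3536 CPM in GM-TC-LPS. In M it was at 0 at steady state and at 474 and 565 CPM after LPS, at least 4481-fold higher, and the interaction did not pass (adjusted p = 0.355).

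Il10, a cytokine that restrains inflammation, had no counts in GM-TC and 0.465 and 0.511 CPM in GM-TC-LPS, at least 3.59-fold higher. In M cells Il10 went from 2.99 and 2.32 to 44.1 and 53.7 CPM, so M-TC-LPS was far above every GM library, but the interaction could not be called (adjusted p = 0.306). Csf2, which encodes GM-CSF, had no counts in M-TC and 5.81 and 4.71 CPM in M-TC-LPS (at least 45.3-fold higher), next to 0.253 and 0.0805 CPM and 7.70 and 9.01 CPM in GM. Its call was lost under several alternatives, with an adjusted p of 0.0542 in the 8 TC libraries alone. Lif, of the interleukin 6 family, was at 0 in M-TC and at least 13.6-fold higher after LPS. Clcf1, of the same family, rose from 4 counts over the M-TC libraries to 7.78 and 6.62 CPM.

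Among 53 tested cytokine and chemokine receptors, 12 had a higher response in M and 2 in GM (8 and 6 with scaling by library size only). The share called was 26.4%, next to 12.7% of all genes tested, and 26 interactions were above 0 and 27 below. Csf2rb, the signalling chain of the GM-CSF receptor, was at 1995 and 1865 CPM in GM-TC, 1608 and 1677 CPM in GM-TC-LPS, 179.8 and 179 CPM in M-TC and 410.4 and 373 CPM in M-TC-LPS. GM libraries were higher throughout, and only M rose (interaction 1.36, standard error 0.08, adjusted p = 5.61e-12). The binding chain Csf2ra had an interaction of 0.26, within the size limit, and Csf1r, at 2894 and 2823 CPM in M-TC and 2892 and 2771 CPM in M-TC-LPS, had one of 0.17 (adjusted p = 0.067). Il18rap, a chain of the interleukin 18 receptor, rose in M (log2 1.48) against -0.77 in GM. Il2ra, the alpha chain of the interleukin 2 receptor, rose in GM from 22.8 and 20.9 to 69.4 and 76.8 CPM and in M from 3 counts to 2.02 and 1.57 CPM. Its call was lost when a share was subtracted per library (interaction 1.89, adjusted p = 0.107). Tnfrsf9, the costimulatory receptor 4-1BB, was at 0 in M-TC and at least 9.95-fold higher in M-TC-LPS, at 1.38 and 0.930 CPM. Of 21 genes of the TLR4 complex and its proximal signalling, 2 were higher in GM (Tab1 and Traf3, with interactions of -1.48 and -1.13) and 1 in M (Irak2, 1.51), which is 14.3% called next to 12.7% of all genes tested. Of 17 genes of NF-kB subunits and inhibitors, 1 was called (5.88%). This was Nfkbiz, a nuclear inhibitor of the IkB family that is needed for Il6 and Il12b, at 5.81 and 4.39 CPM in GM-TC, 583 and 613 CPM in GM-TC-LPS, 38.6 and 38.1 CPM in M-TC and 1120 and 1158 CPM in M-TC-LPS. M was higher at both times and GM rose more (interaction -2.0, standard error 0.11, adjusted p = 5.33e-12).

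**Figure D3:**
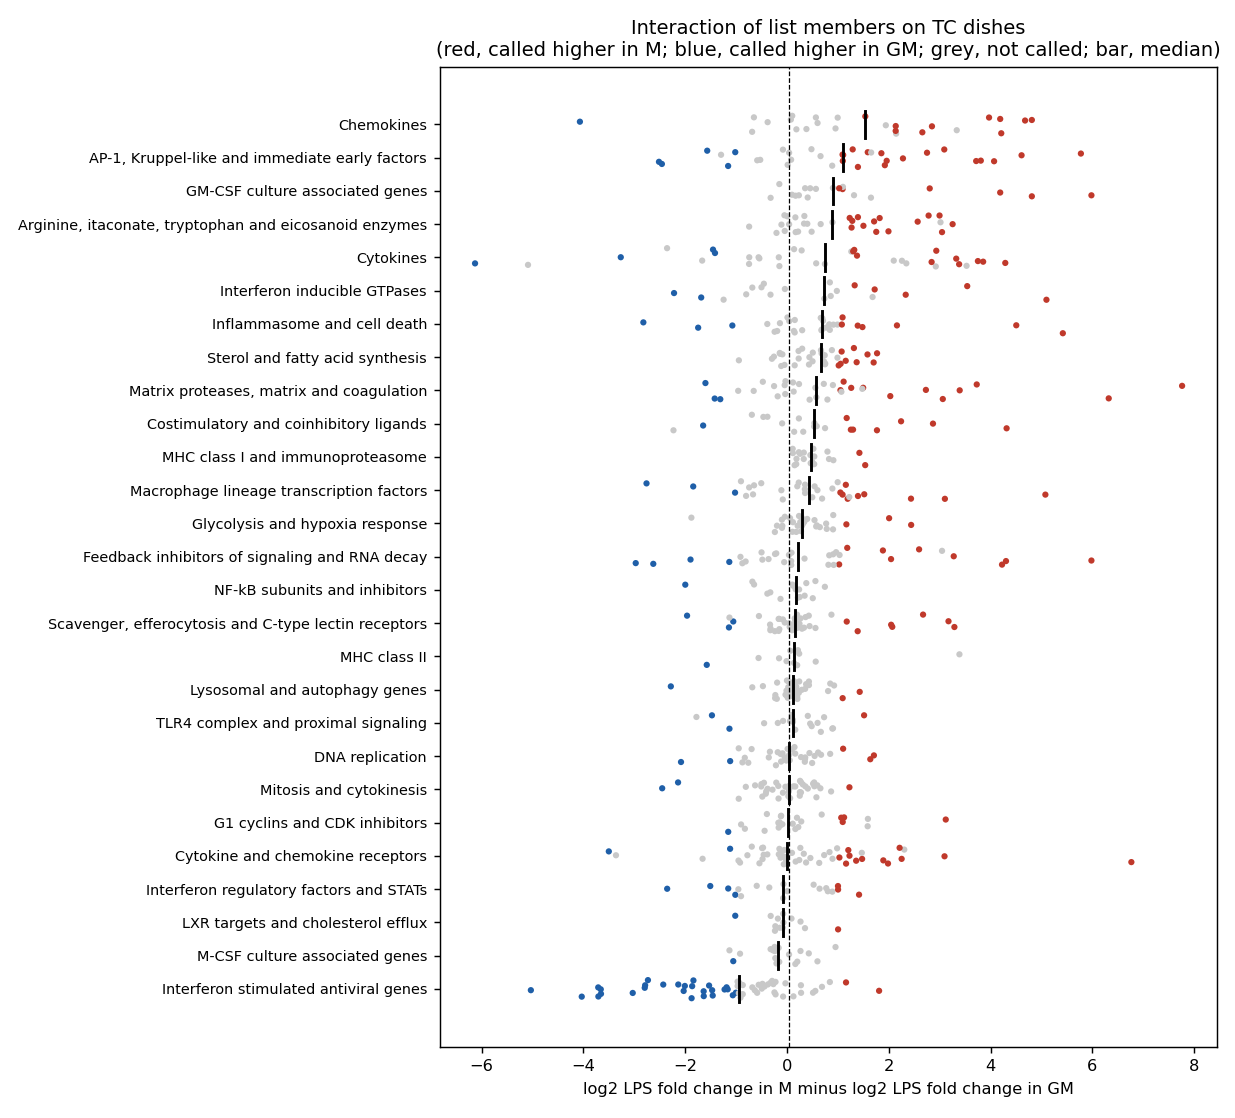
Interaction of each tested member of 27 gene lists, on the log2 scale (horizontal axis), with the list's median as a bar and the median of all tested genes (0.04) dashed. Interferon stimulated antiviral genes lie lowest (median -0.95) and chemokines highest (median 1.54). Scaling by library size only moves the median of all genes to -0.30, and 10 of the 27 medians then change sign; relative to that median 3 do.

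Of the feedback inhibitors of signalling, 9 of 34 were higher in M and 4 in GM (38.2% called, next to 12.7% of all genes tested). With scaling by library size only the counts were 7 and 7, and on noTC dishes 8 and 7. Socs3, which blocks signalling of the interleukin 6 receptor, was at 24.2 and 26.4 CPM in GM-TC, 479 and 505 CPM in GM-TC-LPS, 2.87 and 2.77 CPM in M-TC and 1057 and 994 CPM in M-TC-LPS. GM-TC was above M-TC and M-TC-LPS above GM-TC-LPS (interaction 4.23, standard error 0.12, adjusted p = 3.08e-17). Cish, an inhibitor of STAT5 that is a known target of GM-CSF, rose in M from 0.399 and 0.225 to 50.8 and 59.7 CPM and in GM from 72.4 and 76.3 to 203 and 210.1 CPM. M cells stayed under GM cells at both times, with an interaction of 5.98 (standard error 0.19, adjusted p = 4.29e-16). Socs1, an inhibitor of JAK kinases, and Dusp2, a phosphatase of MAP kinases, had interactions of 3.28 and 4.30. The 4 members with a higher response in GM were Zfp36l2, Pdcd4, Zc3h12d and Zfp36l1, with interactions of -2.97, -2.63, -1.90 and -1.13. Zfp36l1 and Zfp36l2 bind AU-rich messages and promote their decay. The median of the list was 0.22 (-0.13 with scaling by library size only, 0.17 relative to the median of all genes under that scaling).

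The letters TTCNNNGAA of STAT sites, N being any base, were found in 7.78% of the windows of genes with a higher response in M, in 6.24% of those with a higher response in GM, in 6.0% of the windows of all tested genes and in 7.02% of all windows. The AP-1 letters TGANTCA were found in 8.04% of the windows of genes with a higher response in M, in 4.59% of those with a higher response in GM, in 4.73% of those of all tested genes and in 6.75% of all windows, searched in the same way. The letters GGG, 3 bases of any kind and TTCC of kappaB sites were in 3.83% and 6.24% of the windows of genes with a higher response in M and in GM, next to 5.22% of those of all tested genes and 4.65% of all windows. The windows of Plaur, with an AP-1 match in capitals, and of Socs3, with a STAT match in capitals, are given as examples from the genes called higher in M.
Plaur (chr7:24462283-24462482, plus strand): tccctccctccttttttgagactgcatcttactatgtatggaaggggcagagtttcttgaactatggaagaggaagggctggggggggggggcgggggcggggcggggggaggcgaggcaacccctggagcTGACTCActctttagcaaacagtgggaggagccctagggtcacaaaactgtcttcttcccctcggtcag
Socs3 (chr11:117969367-117969566, minus strand): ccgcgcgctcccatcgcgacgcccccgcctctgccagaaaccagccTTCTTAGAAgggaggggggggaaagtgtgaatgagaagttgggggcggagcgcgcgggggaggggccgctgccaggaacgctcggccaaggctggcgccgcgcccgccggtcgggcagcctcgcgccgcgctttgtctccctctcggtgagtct

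The list of AP-1, Kruppel-like and immediate early factors had the largest share of called members, 22 of 33, with 17 higher in M and 5 in GM. This was 66.7%, next to 12.7% of all genes tested. Klf4, a Kruppel-like factor of monocyte development, was at 78.7 and 74.2 CPM in GM-TC, 8.69 and 9.24 CPM in GM-TC-LPS, 13.6 and 14.03 CPM in M-TC and 26.5 and 28.1 CPM in M-TC-LPS. GM-TC was highest and GM-TC-LPS lowest, with a log2 fold change of -3.09 in GM and 0.98 in M, so that the cell types changed places (interaction 4.07, standard error 0.13, adjusted p = 2.29e-16). Nr4a3, an orphan nuclear receptor, rose in M from 4 counts to 51.5 and 65.2 CPM and in GM from 11.3 and 10.6 to 306 and 327 CPM. Within this list the related Nr4a1 had a higher response in GM, with an interaction of -2.52, as had Klf2 (-1.57), Klf9 (-1.02), Klf10 (-1.16) and Klf11 (-2.46). Of the macrophage lineage factors, 9 of 32 were higher in M and 3 in GM (37.5% called). These counts turned to 5 and 7 with scaling by library size only. Tfec, of the family of lysosomal regulators, was at 109.7 and 113 CPM in GM-TC, 211 and 223 CPM in GM-TC-LPS, 19.1 and 17.2 CPM in M-TC and 300.5 and 306 CPM in M-TC-LPS. The M level went from the lowest to the highest of the 4 groups (interaction 3.10, standard error 0.08, adjusted p = 2.24e-17). Cebpd, a factor of the acute phase response, rose in both and more in M (log2 3.48 against 1.05). Bhlhe41 fell in both and more in M (interaction -1.84). Zbtb46, a factor that marks conventional dendritic cells, rose in GM from 2.17 and 1.33 to 6.83 and 6.87 CPM and stayed under 0.5 CPM in M; it also stands in the dendritic cell list above.

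**Figure D4:**
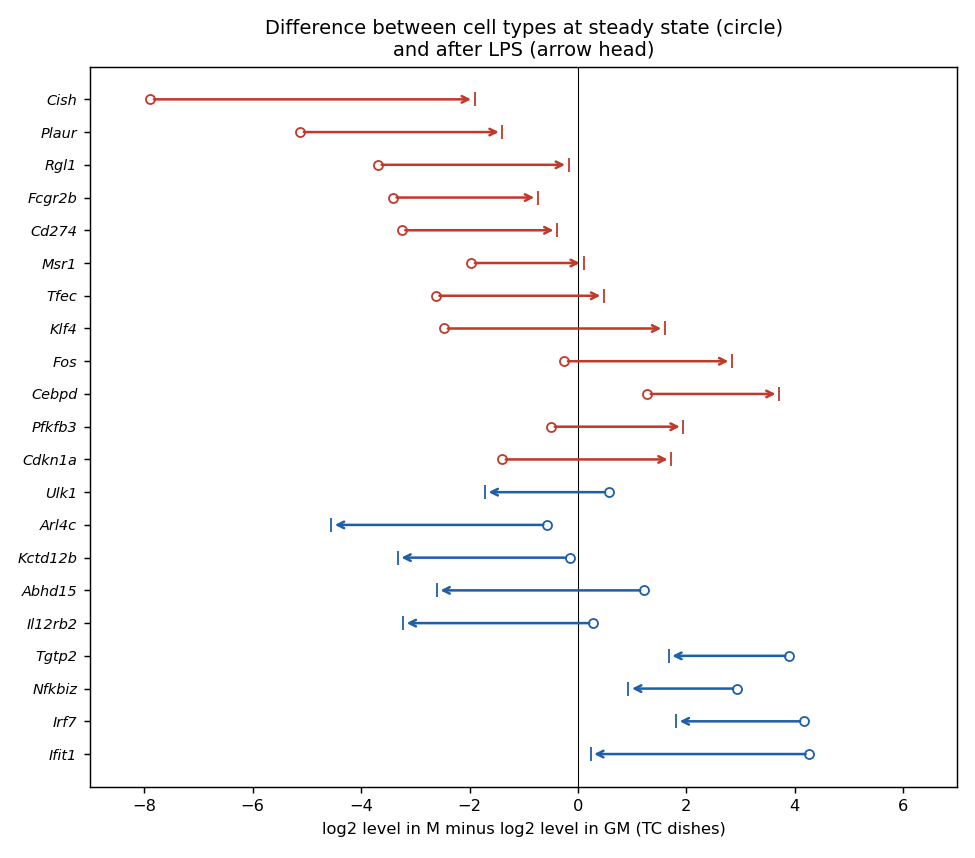
Difference between cell types for 21 genes, as log2 level in M minus log2 level in GM on TC dishes, at steady state (circle) and after LPS (arrow head). For genes such as Cish, Plaur and Cd274 the arrow starts where GM is higher and moves toward 0, for Ifit1, Irf7 and Nfkbiz it starts where M is higher and moves toward 0, and for Arl4c and Il12rb2 it starts near 0 and moves away from it.

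The level at steady state differed for many of the called genes. As a description, since the interaction is made of the same libraries, 389 of the 769 genes with a higher response in M were lower in M than in GM at steady state (adjusted p under 0.05 and more than 2-fold), and 29 were higher. Their median difference of M and GM went from -1.05 at steady state to 0.61 after LPS, and 449 of them (58.4%) were closer between the cell types after LPS, next to 44.2% of all tested genes. Of the 825 genes with a higher response in GM, 188 were higher in M at steady state and 58 were lower, and 251 (30.4%) were closer after LPS. Their median difference went from 0.38 to -1.06. Of all 12514 tested genes, 1657 were lower in M at steady state and 1069 were higher, by the same limits.

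Of 11 MHC class II genes, 1 was called (9.09%, next to 12.7% of all genes tested), Ciita, the master regulator of that class, at 26.3 and 23.5 CPM in GM-TC, 42.7 and 44.8 CPM in GM-TC-LPS, 11.1 and 12.5 CPM in M-TC and 6.89 and 7.03 CPM in M-TC-LPS. GM libraries were higher throughout, and the LPS response was 0.82 in GM and -0.76 in M on the log2 scale (interaction -1.58, adjusted p = 2.83e-08). Of 21 genes of MHC class I and the immunoproteasome, 2 were called (9.52%), the near copies H2-Q6 and H2-Q7 (1.42 and 1.54), and the median interaction was 0.47 (0.12 with scaling by library size only). Among 20 costimulatory and coinhibitory ligands, 7 were higher in M and 1 in GM (4 and 2 with scaling by library size only). Of these ligands 40% were called, next to 12.7% of all genes tested. Cd274, which encodes the inhibitory ligand PD-L1, was at 283 and 274 CPM in GM-TC, 1218 and 1244 CPM in GM-TC-LPS, 28.5 and 29.9 CPM in M-TC and 919.9 and 968 CPM in M-TC-LPS. M-TC was lowest and the level after LPS came near that of GM (interaction 2.87, standard error 0.07, adjusted p = 1.06e-17). Cd200, another inhibitory ligand, and Vcam1, an adhesion molecule, had interactions of 1.77 and 2.24. The gene higher in GM was Cd40 (-1.65), which receives help from T cells.

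Enzymes of arginine, itaconate, tryptophan and eicosanoid metabolism had 14 of 31 members called, and those 14 were higher in M. This was 45.2%, next to 12.7% of all genes tested. On noTC dishes 7 were called higher in M and 0 higher in GM. The list's median interaction was 0.89 on TC, and 0.50 after a small share of the other libraries was removed. Slc7a2, a transporter of arginine, was at 479 and 412 CPM in GM-TC, 4869 and 5047 CPM in GM-TC-LPS, 4.55 and 5.05 CPM in M-TC and 403 and 453 CPM in M-TC-LPS. GM was far higher at both times, and M rose more (interaction 3.0, standard error 0.13, adjusted p = 6.99e-14). Nos2, the inducible nitric oxide synthase, was at 0.454 and 0.644 CPM in GM-TC, 393 and 439.7 CPM in GM-TC-LPS, 0.518 and 0.449 CPM in M-TC and 1185 and 1241 CPM in M-TC-LPS. The steady state libraries of both cell types overlapped and M-TC-LPS was higher than GM-TC-LPS (interaction 1.75, adjusted p = 0.00598), and without the second GM-TC library the interaction was 1.46 (adjusted p = 0.16). Ptges, which makes prostaglandin E2, and Ch25h, which makes 25-hydroxycholesterol, had interactions of 2.78 and 3.05. Arg1, which breaks down arginine, was at 54.1 and 51.9 CPM in GM-TC, 19.6 and 37.98 CPM in GM-TC-LPS, 0.239 and 0.112 CPM in M-TC and 1.03 and 0.814 CPM in M-TC-LPS. Its interaction of 3.25 (adjusted p = 0.00785) rests on about 1 CPM in M-TC-LPS, 3.21% of GM-TC-LPS, and it turned to -0.17 (adjusted p = 0.958) after the small share of other libraries was removed.

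Sterol and fatty acid synthesis had 9 of 33 genes called (27.3%, next to 12.7% of all genes tested), and those 9 were higher in M. With scaling by library size only, 4 were higher in M and 1 in GM. Sc5d, a late enzyme of cholesterol synthesis, was at 123 and 131 CPM in GM-TC, 81.8 and 79.3 CPM in GM-TC-LPS, 98.4 and 92.5 CPM in M-TC and 208 and 204 CPM in M-TC-LPS. M-TC-LPS was the highest group and GM-TC-LPS the lowest (interaction 1.77, standard error 0.08, adjusted p = 4.48e-14). Acat2, an early enzyme of the pathway, fell in GM (log2 -1.74) against -0.16 in M. Of 13 LXR targets, Abcg1 fell in both and more in GM (interaction 1.0) and Abca1 rose in GM (log2 1.30), and both lie at the size limit of 1. In glycolysis and the hypoxia response, 3 of 33 were called (9.09%, next to 12.7% of all genes tested), and those 3 were higher in M. Pfkfb3, which makes the activator of phosphofructokinase, was at 35.8 and 34.7 CPM in GM-TC, 58.4 and 53.7 CPM in GM-TC-LPS, 25.1 and 24.9 CPM in M-TC and 216 and 215 CPM in M-TC-LPS. The glucose transporter Slc2a1 rose in M (log2 2.29) against 0.29 in GM, and Hk2, a hexokinase, rose in both (interaction 1.17). The median of that list was 0.29 (-0.05 with scaling by library size only, 0.25 relative to the median of all genes under that scaling).

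Proteases and regulators of coagulation outside the cell had 11 of 33 members higher in M and 3 in GM (42.4% called, next to 12.7% of all genes tested). Mmp13, a collagenase, was at 90.9 and 95.8 CPM in GM-TC, 611 and 598 CPM in GM-TC-LPS, 2.95 and 2.99 CPM in M-TC and 1466 and 1620 CPM in M-TC-LPS. It went from the lowest level in M-TC to the highest in M-TC-LPS, with an interaction of 6.32 (standard error 0.11, adjusted p = 2.18e-20). Adamts4, which cleaves aggrecan, had no counts in M-TC and 53.5 and 56.4 CPM in M-TC-LPS, at least 474-fold higher, next to 12.1 and 12.2 CPM in GM-TC-LPS. The 3 members higher in GM were Timp1 and Timp3, which inhibit such proteases, and the matrix gene Thbs1, with interactions of -1.60, -1.31 and -1.42. Among 40 receptors of uptake, 7 were higher in M and 3 in GM (25% called, next to 12.7% of all genes tested). The inhibitory Fc receptor gene Fcgr2b was at 379 and 386 CPM in GM-TC, 565 and 568 CPM in GM-TC-LPS, 35.9 and 35.9 CPM in M-TC and 350.5 and 328 CPM in M-TC-LPS. M-TC was lowest and M-TC-LPS came close to GM-TC (interaction 2.67, standard error 0.07). Msr1, a scavenger receptor, rose in M (log2 2.60) against 0.53 in GM, and Olr1, a receptor of oxidised lipoprotein, rose in M to 3.27% of its level in GM-TC-LPS. Cd163, the receptor of haemoglobin complexes, fell in M (log2 -1.62), and its call (interaction -1.06, adjusted p = 0.0233) was lost with DESeq2.

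Inflammasome and cell death genes had 7 of 30 members higher in M and 3 in GM (33.3% called, next to 12.7% of all genes tested). The survival genes Bcl2a1a, Bcl2a1b and Bcl2a1d, near copies whose reads may be split, had interactions of 5.42, 2.16 and 4.51. Mefv, which encodes the inflammasome protein pyrin, rose from 4 counts over both GM-TC libraries to 15.5 and 16.99 CPM in GM, against 1.08 and 1.01 to 25.6 and 25.1 CPM in M. Cdkn1a, an inhibitor of cyclin dependent kinases, was at 171 and 186 CPM in GM-TC, 523 and 522 CPM in GM-TC-LPS, 63.8 and 71.7 CPM in M-TC and 1693 and 1757 CPM in M-TC-LPS. GM was higher at steady state and M after LPS (interaction 3.12, standard error 0.08, adjusted p = 1.2e-17). Of the cell cycle lists, 5 of 36 DNA replication genes, 3 of 41 mitosis genes and 5 of 24 G1 genes were called, next to 12.7% of all genes. Bub1b, of the spindle checkpoint, fell in M (log2 -1.78) against 0.67 in GM. Mcm10, which starts replication, and Cenpe, a motor of the kinetochore, rose in M (log2 1.94 and 1.42), against 0.23 and 0.19 in GM. Ccnf and E2f7 had interactions of -2.14 and -2.08. Of 40 lysosomal and autophagy genes 3 were called (7.5%, next to 12.7% of all genes tested). Among them was Ulk1, the kinase that starts autophagy, which fell in M from 45.7 and 45.2 to 8.37 and 6.51 CPM against 31.0 and 30.3 and 25.5 and 23.8 CPM in GM (interaction -2.28).

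Genes known from the growth factor cultures were counted as well. Of 19 genes associated with GM-CSF cultures, 6 were called (31.6%, next to 12.7% of all genes tested), and those 6 had a higher response in M. The median difference of M and GM over the list was -5.85 at steady state and -4.75 after LPS on the log2 scale. One of them was Pim1, a kinase induced by STAT5, at 176 and 175 CPM in GM-TC, 547 and 540.3 CPM in GM-TC-LPS, 42.5 and 42.02 CPM in M-TC and 909 and 921 CPM in M-TC-LPS. Pim1 was higher in GM at steady state and higher in M after LPS (interaction 2.81, standard error 0.08, adjusted p = 2.72e-17). The list's median interaction was 0.90 and went to 0.15 after the small share was removed. Of 18 genes associated with M-CSF cultures, 1 (Cd163) was called (5.56%), and the median was -0.19.

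The same interaction was computed in the 8 noTC libraries, none of which entered the TC values, although all 16 libraries shared the estimate of the spread. There 1291 genes (10.3%) were called, 615 (4.91%) higher in M and 676 (5.4%) higher in GM. Of the 1594 genes called on TC, 1535 (96.3%) had the same direction on noTC, 1237 (77.6%) also had an adjusted p under 0.05 and 900 (56.5%) were called there. Another 11 had the opposite direction with an adjusted p under 0.05. Klf4 had an interaction of 3.89 on noTC, Arl4c of -3.56, Il12rb2 of -3.07, Plaur of 2.80 and Cish of 5.07. The difference between the interactions on TC and noTC had an adjusted p under 0.05 for 327 genes (2.61%), of which 89 (0.711%) also differed more than 2-fold. For Cxcl10 the interaction was -4.07 on TC and 0.87 on noTC, and for Il1b it was 1.38 and -1.20. For Il1a it was 3.38 on TC and -1.19 on noTC. These 3 genes are abundant after LPS, and with a share of 0.783% of the other libraries removed from the LPS and noTC libraries the differences of Il1a and Il1b no longer passed and that of Cxcl10 turned to 6.12. In M-noTC, Il1a was at 14.9 and 10.4 CPM and Il1b at 14.3 and 12.1 CPM. Cxcl10 was at 29.3 and 26.9 CPM in GM-noTC. The share can take most or all of such levels, so the removal cannot decide these 3 differences. Of the 20 genes named here whose interaction differed between the dishes, 7 passed in the same direction after that removal: Egr2, Myc, Wfs1, Ciita, H2-Q7, Ptges and Mmp13. The removal takes little from genes that are low in the LPS libraries. The difference was 2.144 before and 2.142 after it for Myc, and 1.373 and 1.371 for Ptges. Passing did not follow abundance alone. Mmp13, at 923 and 909 CPM in GM-noTC-LPS, passed, with a difference of 1.85 before and 1.03 after the removal. Bcl2a1a, at 203 and 180 CPM there, did not pass. The amount removed was set by a gene's level in the other libraries, so the removal is no test of these differences. For Myc the interaction was 3.72 on TC and 1.57 on noTC, for Egr2 3.81 and 2.54, and for Mmp13 6.32 and 4.48.

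**Figure D5:**
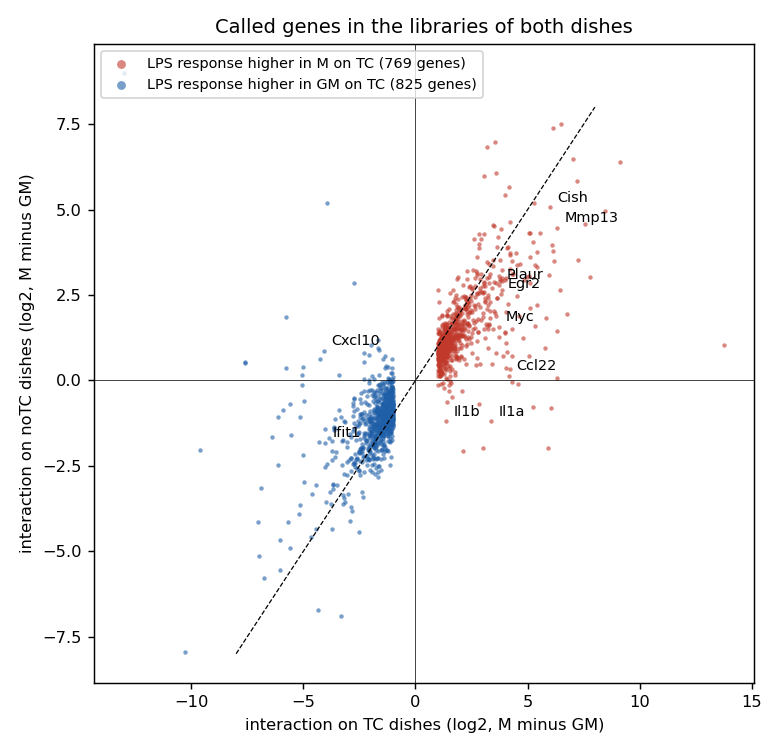
Interaction on noTC dishes (vertical axis) against interaction on TC dishes (horizontal axis) of the 1594 genes called on TC, on the log2 scale; the dashed line marks equal values and the points were chosen by their horizontal value. Of these genes 1535 have the same sign on both dishes, and Cxcl10, Il1a and Il1b do not.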

How the data were processed

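RNA of 16 libraries was sequenced in 8 groups of 2, and groups were taken from the sample labels. Clean reads were aligned with HISAT2 and quantified with RSEM by the authors, and the deposited values are their expected counts per gene, not normalized; the submitters' processing notes also name fastp 0.18.0, Bowtie2 2.2.8 and StringTie 1.3.1. The build was not given in the sources used here, so no gene coordinates are printed from the files, and promoters are those of RefSeq. They were rounded (6.56% to 7.54% of the genes of a TC library were not whole), filtered by group, scaled with TMM and fitted over all 16 libraries with edgeR 4.0.16 (quasi-likelihood test) in R 4.3.3; adjusted p-values are Benjamini-Hochberg over 12514 genes. The study's methods used DESeq2 (here 1.42.0, an alternative) at an unadjusted p. A fold against a group without counts uses 3 counts per library, and the exact intervals at 95% cover counting error only. Genes were named by a fixed rule: 12 anchors, up to 5 genes per class with 10 CPM or more and over 3 counts in each group, and up to 4 called members per list with 5 CPM or more; others in the text are list members, markers or genes chosen after their values were seen. The comparison, the members and the lists were chosen with earlier results of these data known. On simulated counts of this interaction over 12444 genes, the test recovered 97 of 100 genes changed by 1.5 and 100 of 100 changed by 3 on the log2 scale, with 6 false calls. The changed genes were drawn from those with a mean above 5 CPM over the TC groups, so recovery of lower genes was not measured. The simulated counts used the spread fitted to these data. Over all genes, replicate numbers did not pair the libraries (deviations correlated between -0.0438 and 0.0439). The cardiac list was higher in replicate 1 than in replicate 2 of GM-TC (71.35 and 41.8 CPM) and of M-TC (97.2 and 57.9 CPM). After LPS its replicates were close, at 71.8 and 72.1 CPM in GM and 54.6 and 51.3 CPM in M. A shared preparation by replicate number was not tested. Alternatives were other scalings, no filter, only the TC libraries, DESeq2, other thresholds, a replicate block, subtraction of reads of other libraries and leaving out each library. Some results are not reported here.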

Additional observations from a re-analysis of the deposited data

Results flagged for a closer look

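The interaction of growth factor and LPS was itself a difference between groups, with 769 genes whose LPS response was higher in M and 825 whose response was higher in GM. For 20 named genes the interaction also differed between TC and noTC dishes by edgeR's quasi-likelihood test of the difference (adjusted p under 0.05 and more than 2-fold). The values that follow are the interaction on TC minus that on noTC, on the log2 scale. The difference was positive for the cytokines Il1b (2.57) and Il1a (4.57), the chemokines Ccl17 (3.56) and Ccl22 (4.05), and the factors Egr2 (1.27), Myc (2.14) and Nr4a3 (2.73). Wfs1 (1.21), H2-Q7 (1.56), the arginine transporter Slc7a2 (1.14), Ptges (1.37), Mmp13 (1.85), Bcl2a1a (1.66) and Bcl2a1d (1.13) were positive as well. It was negative for Cxcl10 (-4.94), Ifit3b (-2.86), Ifit1 (-2.21), Ifit2 (-1.94), Ifit3 (-1.65) and Ciita (-1.21). After 0.783% of the other libraries was removed, 7 of the 20 passed in the same direction, as named above. The amount removed was set by a gene's level in the other libraries, so the removal is no test of these differences.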

How the results depend on the processing

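With library size only, 468 genes had a higher response in M and 1567 in GM (48.2% of calls were higher in M with TMM and 23% here), 110 were flat in GM and up in M and 355 flat in GM and down in M. Relative to the median of all genes the same scaling gave 689 and 993 genes, and 9 down in GM and up in M. With a fold threshold of 1.5 there were 1489 and 1498 genes, 277 flat in GM and up in M and 92 down in GM and flat in M, and 2325 of those calls passed by adjusted p in the same direction on noTC dishes, against 1237. Subtraction of a share per library gave 29 genes down in GM and up in M and 122 down in GM and flat in M, and turned Arg1 to -3.61 (adjusted p = 0.632); the share of 0.783% turned Arg1 to -0.17 (adjusted p = 0.958). A replicate block gave 767 and 820 genes, moved no count by over 1.5 times and changed no call of a named gene. DESeq2 called 742 and 757 genes on 16 libraries and 701 and 674 on 8. Leaving out 1 TC library left between 1496 and 1642 genes called, and between 10 and 18 genes up in GM and down in M; the lone library of that group was assumed to vary like the others. A gene at 3 counts or under in a group (161 of the 1594) has a fitted interaction that depends on the prior count. Among the 116 called named genes, these 17 lost their call or turned under an alternative, and the cause was not tested: Abca1, Abcg1, Arg1, Atp6v1b2, Brca1, Ccne1, Ccne2, Cd163, Cenpe, Csf2, Hk2, Il2ra, Kazn, Lif, Nos2, Rbl1 and Stat4. The removal of 0.783% and the scaling relative to the median were chosen after seeing the data.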
